A study of Mus musculus with 4 samples.

Results

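Skeletal muscle contractile and metabolic genes were followed in the salivary glands (SGs) of mice with and without Myd88, an adaptor of Toll-like receptor signaling. The set holds 45 genes out of 34844 gene names on the array. It lists sarcomere proteins, calcium handling proteins and muscle enzymes, and it was drawn up with the difference between the genotypes already known. The differences between the genotypes are therefore a description of these genes, with no test. Signals were read from 4 one-colour Agilent arrays of submandibular glands (SMGs) together with sublingual glands (SLGs). All mice were C57/BL6 females at 10 weeks of age, with 2 arrays labelled Myd88-KO, from Myd88-null mice, and 2 labelled Wildtype. The labels do not state that replicates came from separate animals, so the spread between them may be technical. According to the labels, lymph nodes, connective tissue and fatty tissue had been dissected away. All 4 arrays lay on 1 slide.

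Skeletal muscle fibers shorten when myosin thick filaments pull on actin thin filaments, whose troponin and tropomyosin respond to calcium released from the sarcoplasmic reticulum. Z discs anchor the thin filaments, and creatine kinase, glycogen breakdown and glycolysis supply ATP. Fast and slow fibers use different gene copies for many of these parts, and developing fibers use embryonic and neonatal myosins. The secretory lobules of SGs contain myoepithelial cells, which contract with smooth muscle proteins, but no striated fibers. The SMGs lie against muscles of the neck and jaw.

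Values are the log2 processed signal minus the 75th percentile of the same array, so that a value of 0 equals that percentile. Differences are log2 values of Myd88-KO minus Wildtype. The 75th percentile was 256 and 237 on Myd88-KO arrays 1 and 2, and 321 and 269 on Wildtype arrays 1 and 2. Myd88-KO arrays 1 and 2 detected 52.2% and 68.4% of probes, Wildtype arrays 1 and 2 detected 74.2% and 55.1%, and no spot was saturated. The Myd88 probe (chromosome 9, 119245322 to 119245381, mm9) gave 1.51 and 1.41 on the Myd88-KO arrays and 1.15 and 1.07 on the Wildtype arrays. It was not lower under the Myd88-KO label, and the sources used here do not place it in the deleted part, so the groups are named by their labels throughout. Of the 13 salivary acinar and duct genes on the array, 13 were measured, and the secreted gland protein Smgc read 8.33 to 10.08 on the 4 arrays.

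A probe passed when it was detected, meaning well above background, on both arrays of either label, and the brightest probe that passed stood for its gene. Of the 45 muscle genes, 38 passed. Among these, 21 were well above background on all 4 arrays, and 17 passed through the Wildtype arrays alone, which means that those 17 were, by that rule, below background on at least 1 Myd88-KO array. The 7 that did not pass were Myh3, Mylpf, Tnnc1, Tnni1, Myl2, Myoz2 and Sln. The median difference was -2.48 over the 38 genes (-2.10 with the 7 genes undetected on both Myd88-KO arrays set at their bounds, explained with Myh4), -2.10 over all 45 and -1.38 over the 21 seen on every array, beside 0.06 over the 22321 genes tested on the array. Non-overlapping arrays with lower Myd88-KO values were found for 32 of the 38 genes, against 18.7% of all genes tested. Non-overlapping arrays with a difference of at least 2-fold were found for 28 of them, against 3.08% of all genes tested. Nothing is read from these shares, since the set was chosen on this contrast. With normexp background correction the median over the 38 genes was -0.87 and the latter count was 17, so the sizes of dim genes depend on how background is handled. Because whole tissue was measured, fewer muscle cells and less RNA per muscle cell cannot be told apart.

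The genes differed by isoform class. The 13 fast genes that passed had a median difference of -4.07 (-3.93 with undetected genes at their bounds) and measured differences from -8.49 to -1.20, and none of them overlapped between labels. Of these 13, 8 had passed through the Wildtype arrays alone. The 5 slow genes that passed, of 9, had a median of -0.08 and a range from -1.14 to 0.43. Myh7, Myl3 and Casq2 among them read only -3.69 to -2.76 on the Wildtype arrays. The dimmest detected signals of the Myd88-KO arrays were -3.97 and -4.03, so these genes had little room to read lower. The part of this limit in the difference between classes was not tested. The 19 genes that fast and slow fibers share had a median of -2.10 (-1.85 at their bounds). By role, the median was -3.93 for 9 thick filament genes, -3.51 for 6 thin filament genes, -2.51 for 7 energy genes, -2.16 for 8 calcium handling genes and -1.91 for 8 genes of the Z disc and cytoskeleton. With undetected genes at their bounds it was -1.85 for the energy genes and -1.34 for the genes of the Z disc and cytoskeleton.

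**Figure D1:**
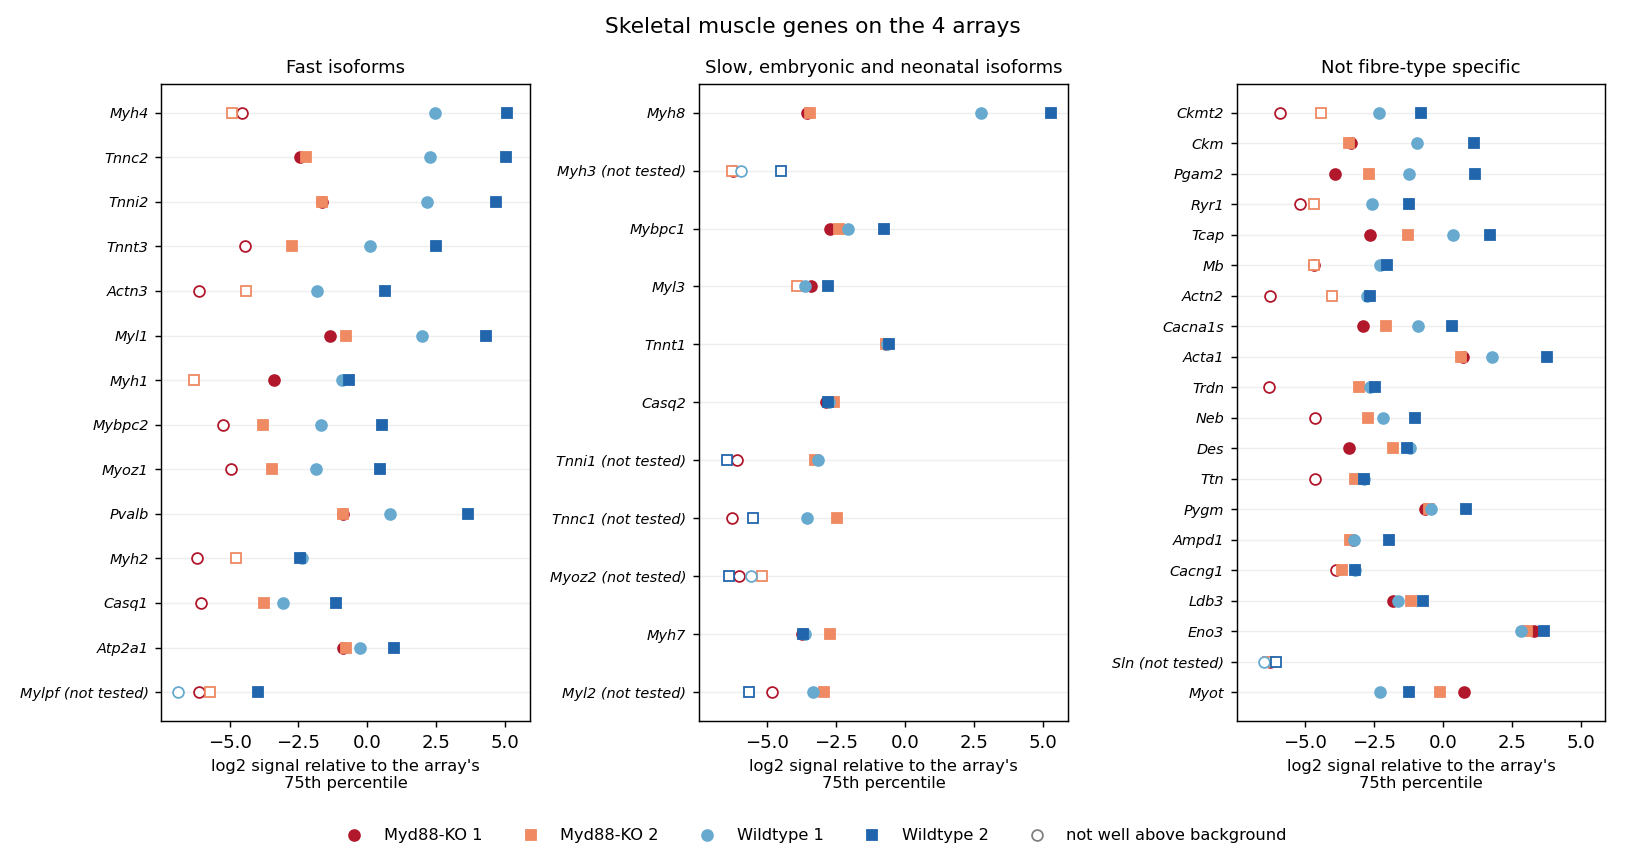
Log2 signal relative to the 75th percentile of each array (x axis) for each of the 45 muscle genes (rows), with 1 point per array; open points are not well above background, and points of equal value cover each other. Fast genes such as Myh4 and Tnnc2 spread over many log2 units with Wildtype array 2 highest, whereas the slow genes Tnnt1 and Casq2 have their 4 points almost together.

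Myosin heavy chains are the motor proteins of the thick filament. Myh4, the chain of the fastest (IIB) fibers, read -4.55 and -4.89 on the Myd88-KO arrays and 2.47 and 5.06 on the Wildtype arrays. Both Myd88-KO values were below the background criterion, so the measured difference of -8.49 has no exact meaning and only a bound can be given. With the dimmest detected signal of each Myd88-KO array put in place of values under it, the Wildtype mean was at least 218-fold higher. Bounds for other genes were set in the same way. They hold for the processed signal only. With normexp background correction the differences of the 7 muscle genes with bounds were smaller than these bounds, from -5.69 for Myh4 to -0.43 for Actn2. Myh1, of IIX fibers, read -3.40 and -6.30 against -0.91 and -0.66, a difference of -4.07, and only Myd88-KO array 1 of that label was above background. Myh2, of IIA fibers, read -6.19 and -4.76 against -2.37 and -2.44, and Wildtype was at least 3.01-fold higher. Each of the 3 fast chains was dimmer on both Myd88-KO arrays than on either Wildtype array, as were 18.7% of all genes tested. All 3 had passed through the Wildtype arrays alone, so that direction was close to fixed by the filter. Myh7, the slow chain, read -3.73 and -2.71 against -3.62 and -3.69, and its labels overlapped, with a difference of 0.43.

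Myh8, the neonatal chain, read -3.55 and -3.43 on the Myd88-KO arrays and 2.76 and 5.30 on the Wildtype arrays, a difference of -7.52 or 183-fold with every array above background. Myh3, the embryonic chain, was below background with both of its probes on all 4 arrays, and its brighter probe read -6.24, -6.29, -5.95 and -4.50. The large Myh8 difference rested on 1 of its 4 probes. The other probe that passed read -6.18 and -3.11 against -4.16 and -2.91, so that its labels overlapped, and the remaining 2 probes were below background everywhere. The genes of this family are close in sequence. The probes are shown to set the bright Myh8 probe beside the dim one and beside a Myh3 probe. Capitals mark the 29 identical bases in the 48 that overlap at the best ungapped match between the bright Myh8 probe, from base 5937 of the transcript, and the Myh3 probe. Their positions are chr11:67093475-67093534, chr11:67121925-67121984 and chr11:66915107-66915166 (mm9), in the order printed.
Myh8 from base 477: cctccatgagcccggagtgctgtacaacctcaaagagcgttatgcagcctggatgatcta
Myh8 from base 5937: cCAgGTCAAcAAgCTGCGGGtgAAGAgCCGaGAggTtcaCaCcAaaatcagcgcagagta
Myh3 from base 5779: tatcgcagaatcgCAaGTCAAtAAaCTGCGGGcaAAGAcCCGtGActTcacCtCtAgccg
The bright Myh8 probe shared 60.4% of the overlapping bases with this Myh3 probe and 40.7% with the Myh4 probe, each at its best match. The Myh3 probe gave no signal above background on the same arrays. Whether the bright probe also reads transcripts of other myosins was not tested, so its values are uncertain as a measure of Myh8 alone.

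Myosin light chains and binding proteins complete the thick filament. Myl1, a fast light chain, read -1.35 and -0.77 against 1.99 and 4.29 (-1.06 ± 0.42 and 3.14 ± 1.62, SD, n = 2), a difference of -4.20. Mybpc2, the fast myosin binding protein C, read -5.24 and -3.78 against -1.68 and 0.53, a difference of -3.93. In both genes the Myd88-KO values lay below both Wildtype values, though Mybpc2 had passed through the Wildtype arrays alone. Mybpc1, its slow counterpart, read -2.73 and -2.40 against -2.08 and -0.76, a difference of -1.14, the only slow gene with non-overlapping arrays and a difference of at least 2-fold. Myl3, a slow light chain, overlapped between labels with a difference of -0.45. Mylpf, the fast regulatory light chain, was above background on Wildtype array 2 alone, at -3.97. Myl2, the slow regulatory light chain, was above background on Myd88-KO array 2 and Wildtype array 1, at -2.94 and -3.33, the arrays with more detected probes.

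Troponin, the calcium switch of the thin filament, has fast and slow genes for each of its subunits. Fast troponin C, Tnnc2, which binds calcium, read -2.44 and -2.23 on the Myd88-KO arrays and 2.26 and 5.04 on the Wildtype arrays, with a difference of -5.99 or 63.4-fold. Fast troponin I, Tnni2, the inhibitory subunit, read -1.63 and -1.66 against 2.15 and 4.68, with a difference of -5.07. Fast troponin T, Tnnt3, which binds tropomyosin, read -4.45 and -2.75 against 0.11 and 2.50, with a difference of -4.90. All 3 fast subunits separated the labels. Tnnc2 and Tnni2 were well above background on every array, whereas Tnnt3 had passed through the Wildtype arrays alone. Slow troponin T, Tnnt1, read -0.70 and -0.69 against -0.66 and -0.58, a difference of -0.08 with every array above background. This rests on the brighter Tnnt1 probe. The other read -4.55 and -3.20 against -3.45 and -4.59 and did not pass. Slow troponin C, Tnnc1, read -6.29 and -2.45 against -3.56 and -5.51. Slow troponin I, Tnni1, read -6.09 and -3.27 against -3.15 and -6.46. The latter pair was above background only on Myd88-KO array 2 and Wildtype array 1, and the labels overlapped.

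The other thin filament genes serve both fiber types. Acta1, skeletal actin, read 0.73 and 0.65 against 1.80 and 3.79 (0.69 ± 0.06 and 2.80 ± 1.41, SD, n = 2), a difference of -2.11. Neb, nebulin, which runs along the thin filament, read -4.64 and -2.72 against -2.18 and -1.003, a difference of -2.09. Acta1 was well above background on all 4 arrays, whereas Neb was not on Myd88-KO array 1.

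Genes of the Z disc and cytoskeleton held both strongly lower values and the only gene of the set whose arrays separated in the other direction. Actn3, the fast actin cross-linker, read -6.12 and -4.41 against -1.84 and 0.64, and Wildtype was at least 10.6-fold higher. Its paralogue Actn2 read -6.25 and -4.00 against -2.73 and -2.63, at least 2.47-fold higher in Wildtype. Tcap, the titin cap, differed by -2.99 and Myoz1, a fast calcineurin-binding Z disc protein, by -3.50. Des, the muscle intermediate filament desmin, which smooth muscle also uses, read -3.41 and -1.82 against -1.19 and -1.28. For Ldb3, a Z disc adaptor, the brightest probe overlapped between labels with a difference of -0.30. Its other probe read -3.71 and -3.84 against -3.26 and -2.17. Neither Myd88-KO value of that probe was detected, and Wildtype was at least 2.09-fold higher. Myot, myotilin, which binds actinin, read 0.77 and -0.10 on the Myd88-KO arrays and -2.28 and -1.21 on the Wildtype arrays. It was higher on both Myd88-KO arrays, by 2.08 or 4.22-fold, where 33.2% of all genes tested had non-overlapping arrays in that direction.

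Titin, the spring that spans the sarcomere from Z disc to M band, had 4 probes that differed along its long transcript. The brightest that passed, from base 33226, read -4.63 and -3.18 against -2.85 and -2.87, a difference of -1.04. The other that passed, from base 101578, read -6.28 and -6.13 against -1.93 and 0.74, with neither Myd88-KO value detected, so that Wildtype was at least 10.6-fold higher. The latter has the order of most fast genes, with Wildtype array 2 highest, and the former does not. For Pvalb, parvalbumin, the calcium buffer of fast fibers, the brightest probe read -0.90 and -0.89 against 0.82 and 3.66, a difference of -3.14. Its other probe read -6.27 and -6.37 against -1.40 and 1.59, with neither Myd88-KO value detected, so that Wildtype was at least 17.1-fold higher. In all, 14 of the muscle genes had more than 1 probe. Of their 20 other probes, 10 passed, and these 10 passed through the Wildtype arrays alone, so their lower Myd88-KO values were close to fixed by the filter.

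Calcium handling genes carry the signal from the surface membrane to the sarcoplasmic reticulum and store the ion. Ryr1, the release channel, read -5.18 and -4.68 against -2.57 and -1.22, and Wildtype was at least 4.30-fold higher. Cacna1s, the voltage sensor, differed by -2.22, Trdn, triadin, by -2.10 and Cacng1, a subunit of the voltage sensor, by -0.57. Another Trdn probe passed but was undetected on both Myd88-KO arrays, with Wildtype at least 2.95-fold higher. A further Trdn probe did not pass and differed by 0.10. Atp2a1, the fast calcium pump, had the smallest difference among the fast genes. It read -0.90 and -0.79 against -0.26 and 0.96, a difference of -1.20. Casq1, the fast calcium store protein calsequestrin, read -6.02 and -3.77 against -3.07 and -1.14, a difference of -2.79. Casq2, its slow and cardiac counterpart, read -2.87 and -2.56 against -2.76 and -2.79, so that the labels overlapped at a difference of 0.06. Sln, the pump inhibitor sarcolipin, was below background on all 4 arrays.

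Among energy genes, Ckm, the cytosolic muscle creatine kinase, read -3.34 and -3.39 against -0.95 and 1.12, a difference of -3.45. Ckmt2, the mitochondrial form, read -5.89 and -4.41 against -2.32 and -0.78, and Wildtype was at least 5.47-fold higher. Mb, myoglobin, the oxygen store, read -4.67 and -4.65 against -2.27 and -2.03, and Wildtype was at least 3.60-fold higher. The Myd88-KO values were below both Wildtype values in all 3 genes, as in 18.7% of all genes tested. Ckmt2 and Mb had passed through the Wildtype arrays alone, so for them this direction was close to fixed by the filter. Ckm was well above background on every array. Pgam2, the muscle phosphoglycerate mutase, differed by -3.25, and its general paralogue Pgam1 by -0.18. Pygm, glycogen phosphorylase, and Ampd1, AMP deaminase, differed by -0.78 and -0.73. Eno3, the muscle enolase, read 3.30 and 3.05 against 2.83 and 3.66 and overlapped at a difference of -0.07, beside -0.31 for the general Eno1.

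Isoform pairs set the fast copy of a protein beside the slow copy on the same arrays. In 3 pairs in which both copies passed, the difference of the fast copy minus that of the slow copy was -4.83 for Tnnt3 and Tnnt1, -2.85 for Casq1 and Casq2, and -2.78 for Mybpc2 and Mybpc1. The 3 fast copies had passed through the Wildtype arrays alone and were undetected on 1 Myd88-KO array each, so these sizes are approximate. Actn3 and the more general Actn2 were both undetected on both Myd88-KO arrays, and their differences cannot be set against each other. In the 3 pairs of Tnnc2 and Tnnc1, Tnni2 and Tnni1, and Myoz1 and Myoz2 the slow copy was too dim, and its difference of 0.16, 0.12 or 0.37 carries little information. Probes differ in brightness for reasons of their own, so only differences are compared here, not levels.

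**Figure D2:**
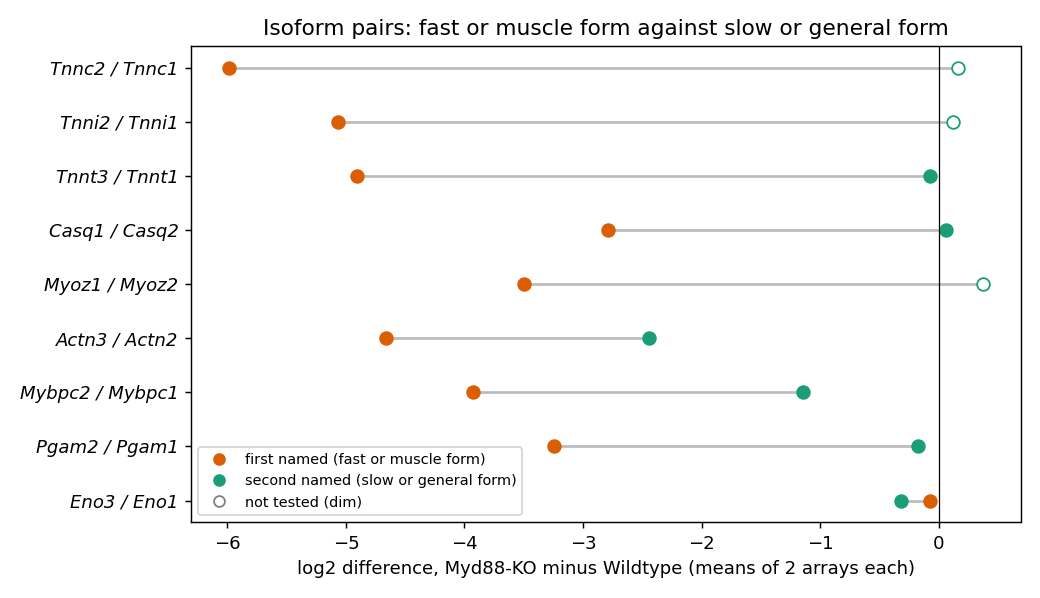
Log2 difference, Myd88-KO minus Wildtype (x axis), for 7 pairs of fast and slow copies and 2 pairs of muscle and general enzymes (rows); each point is the difference between the means of 2 arrays, and open points are genes too dim to pass; Actn3 and Actn2 were undetected on both Myd88-KO arrays. The fast or muscle copy lies to the left in each pair except Eno3 and Eno1, at -0.07 and -0.31.

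The Wildtype arrays differed from each other in the same genes. This difference is not independent of the choice of genes, since the contrast behind the choice contains the same Wildtype values. In addition, 17 of the 38 genes passed through the Wildtype arrays alone. With 1 array on each side the difference is a description of these arrays and has no test. Over all 22321 genes, the median of Wildtype array 2 minus Wildtype array 1 was 0.00, and 80 genes (0.358%) were at least 2-fold higher on array 2. Of the 38 muscle genes that passed, 24 (63.2%) were at least 2-fold higher on array 2, which makes up 30.0% of those 80 genes. Of the 38, 32 were higher on array 2 by any amount, where 50.1% of all genes tested were. That direction was not particular to muscle, since 13 of 13 salivary, 11 of 11 glycolytic and 11 of 12 smooth muscle and myoepithelial genes were also higher there, with 0 genes of these lists at 2-fold. At least 2-fold lower on array 2 were 882 genes and 0 of the 38 muscle genes that passed. The 882 genes, out of 22321, passed the same filter, and nothing is read from the 0 of 38. A gene lost on array 2 does not pass through the Wildtype arrays. Among the genes that did not pass, Tnni1, Myl2 and Tnnc1 differed by -3.31, -2.32 and -1.96. Mylpf and Myh3, which also did not pass, differed by 2.89 and 1.45. Ranked by this difference, 12 of the top 20 genes were members of the set and 2 were other muscle fiber genes, Myom2 and Cox6a2. The top rank was held by Rasl10a, which is not a muscle list gene, at 3.66.

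Between the Wildtype arrays the isoform classes again differed in size. The 13 fast genes had a median difference of 2.33, and 11 of them were at least 2-fold higher on array 2, from Pvalb at 2.84 and Tnnc2 at 2.78 to Atp2a1 at 1.22. The 2 exceptions were myosins of the less fast IIX and IIA fibers, Myh1 at 0.25 and Myh2 at -0.07, whereas Myh4 was 6.04-fold higher at 2.60. Among the 5 slow genes the median was 0.08 and only Mybpc1, at 1.31, passed 2-fold. Of the 19 shared genes 11 did, among them Pgam2 at 2.41, Ckm at 2.08 and Acta1 at 1.99. Mb at 0.25, Actn2 at 0.10 and Des at -0.09 were nearly level between the Wildtype arrays. The summed linear signal of the 13 fast genes, in units of the 75th percentile, was 2.25 and 2.75 on the Myd88-KO arrays and 24.1 and 137 on the Wildtype arrays. The same sum over the 5 slow genes was 1.07 and 1.20, and 1.18 and 1.62. The fast sum was therefore highest on Wildtype array 2, with a wide spread between the Wildtype arrays and a narrow one between the Myd88-KO arrays. The slow sum changed far less across the 4 arrays. Bright genes carry these sums, and single fast genes could differ. Between Myd88-KO arrays, array 2 minus array 1 was -2.90 for Myh1 and 2.26 for Casq1, each undetected on 1 of them.

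**Figure D3:**
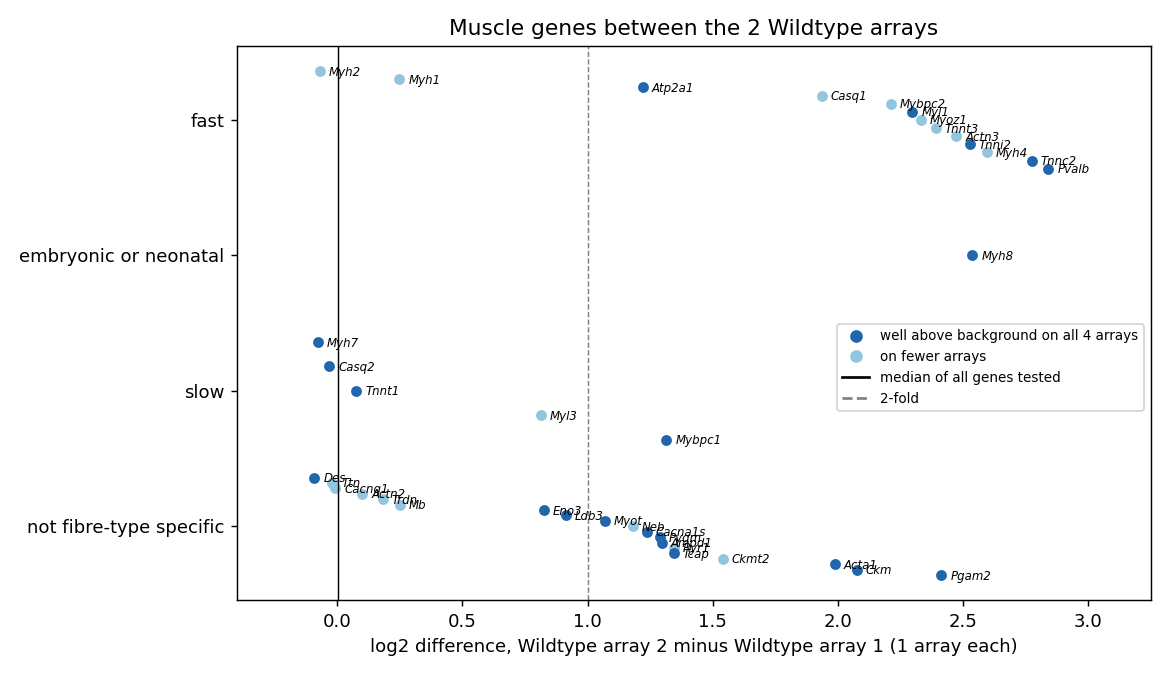
Log2 difference between the 2 Wildtype arrays (x axis, array 2 minus array 1) for the 38 muscle genes that passed, by isoform class (rows); dark points were well above background on all 4 arrays, the solid line is the median of all genes tested and the dashed line marks 2-fold. Most fast genes lie between 1.22 and 2.84, and Myh1, Myh2 and 4 of the 5 slow genes lie below 2-fold.

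Myd88-KO array 1 and Wildtype array 2 had fewer detected probes than the other arrays. Within the pair of arrays with few detected probes, the median difference over the 38 genes was -3.63. Within the pair with many, it was -1.22. Of the 38 genes, 17 had passed through the Wildtype arrays alone. For the fast genes the medians were -5.65 and -2.57, and for the slow genes -0.12 and -0.03. The part of probe detection in these sizes was not tested.

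Promoter sequence was examined because most fast genes moved together across arrays. Muscle regulatory factors of the MyoD family bind E boxes, and CAGCTG is a form of E box common in muscle promoters. The RefSeq table (GRCm38.p6) held 34 of the 45 genes, with 41 windows of 250 bases before a transcript start, some of which overlap. Both strands were searched. CAGCTG was found in 46.3% of these windows and in 13.0% of 32851 windows of all genes. It was found in 45.5% of 11 windows of fast genes, 41.7% of 12 windows of slow genes and 56.2% of 16 windows of shared genes, and in 0 of 2 windows of the embryonic and neonatal genes. The classes were not tested against each other. The wider E box CANNTG, which includes CAGCTG, was found in 85.4% against 66.2%, and the TATAAA box in 19.5% against 12.4%. The CArG box was found in only 5 windows, 12.2% against 1.47%, among them overlapping windows of Ldb3. The MEF2 site was found in only 2 windows, 4.88% against 0.508%. A match is a description of the letters and not a binding site. The windows of Myh4, Myl1, Acta1 and Ckm show where CAGCTG, in capitals, lies in a fast myosin, a fast light chain, actin and creatine kinase. They are given 5' to 3' on the strand of the gene, at chr11:67237562-67237811 (plus strand), chr1:66945057-66945306 (minus), chr8:123894776-123895025 (minus) and chr7:19410844-19411093 (plus).
Myh4: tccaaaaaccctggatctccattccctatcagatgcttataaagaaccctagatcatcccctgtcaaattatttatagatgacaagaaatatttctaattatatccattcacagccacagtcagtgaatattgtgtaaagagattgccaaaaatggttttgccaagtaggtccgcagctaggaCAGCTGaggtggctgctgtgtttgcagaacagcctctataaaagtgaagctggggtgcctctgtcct
Myl1: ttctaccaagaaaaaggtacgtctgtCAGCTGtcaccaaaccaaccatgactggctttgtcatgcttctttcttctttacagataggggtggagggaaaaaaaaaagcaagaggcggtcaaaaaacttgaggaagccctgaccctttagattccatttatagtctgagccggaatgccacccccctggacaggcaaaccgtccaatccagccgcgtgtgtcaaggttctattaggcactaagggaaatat
Acta1: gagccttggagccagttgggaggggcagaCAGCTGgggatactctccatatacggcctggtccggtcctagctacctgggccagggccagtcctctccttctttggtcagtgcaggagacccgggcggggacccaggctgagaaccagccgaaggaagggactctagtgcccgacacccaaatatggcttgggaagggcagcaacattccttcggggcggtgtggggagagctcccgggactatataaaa
Ckm: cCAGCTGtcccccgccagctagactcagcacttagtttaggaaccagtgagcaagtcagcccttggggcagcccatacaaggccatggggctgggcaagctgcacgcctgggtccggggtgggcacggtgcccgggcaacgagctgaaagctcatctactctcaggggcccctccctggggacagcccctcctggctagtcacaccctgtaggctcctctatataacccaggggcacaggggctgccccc
Counted from the transcript start, CAGCTG began at position -67 in Myh4, -224 in Myl1, -221 in Acta1 and -249 in Ckm.

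Further lists of genes were set beside the muscle set. A further list of 60 muscle fiber genes had 56 on the array and 37 that passed, with a median difference of -0.61, and 31 of the 37 had lower means under Myd88-KO. In limma's moderated test 0 of the 37 passed an adjusted p of 0.05, as did 0 of all 22321 genes (0.0%), and the smallest adjusted p in the list was 0.199. Without adjustment 9 were called lower and 2 higher, where 6.83% and 9.81% of all genes tested were. The largest measured difference was in Myom2, an M band protein, at -4.36. Rpl3l, a muscle ribosomal protein, and Smpx, a small muscle protein, came next by measured values but were undetected on both Myd88-KO arrays, with Wildtype at least 2.18-fold and 1.62-fold higher. Cox6a2, a muscle subunit of cytochrome oxidase, was detected on all 4 arrays and differed by -2.17. None of these passed the adjusted threshold. On Wildtype array 2, 8 of the 37 were at least 2-fold higher than on array 1. Of the 9 called lower, Cox7a1, Cox8b and Fabp3 were only 0.24, 0.12 and 0.07 higher on array 2. Ucp1, of the adipocyte list, was 0.30 higher there. Myom3 and Zmynd17 were also near level, at 0.004 and -0.13, and Smpx, Srl, Rpl3l and Myom2 were at 0.58, 0.78, 1.65 and 2.51. The part of fat in the values of this list was not tested.

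Muscle regulatory and satellite cell genes had 7 of 17 measured, a median of -0.34 and no difference beyond 0.78, that of Tmem8c, the fusion protein myomaker, followed by Itga7 at -0.44 and Ncam1 at -0.38. Neuromuscular junction genes had 6 of 10 measured and a median of 0.23, with Colq at -1.19, Dok7 at 0.90 and Rapsn at 0.26. Heart muscle genes had 6 of 13 measured and a median of -0.36, with Actc1, cardiac actin, at least 2.49-fold higher in Wildtype, Myl4 at -1.08 and Myh6 at -0.64. Actc1 was also 6.19-fold higher on Wildtype array 2 than on array 1. Smooth muscle and myoepithelial genes had 12 of 13 measured and a median of -0.04, with Lmod1 at -0.54, Actg2 at -0.34 and Krt5 at -0.27. Glycolytic genes used by all cells had a median of -0.26, led by Pfkl at -0.95, Ldha at -0.38 and Eno1 at -0.31. By limma 0 genes of these 5 lists passed the adjusted threshold, and without adjustment 6 were called lower and 3 higher.

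Genes of other tissues and of the gland itself were read on the same arrays. The 13 T and B lymphocyte genes measured had a median of -2.71, with 8 called lower without adjustment, among them the B cell genes Ms4a1, at least 28.5-fold higher in Wildtype, and Cd79b at -5.08. Their summed signal was 14.0 and 13.2 on the Myd88-KO arrays and 35.6 and 23.9 on the Wildtype arrays. Between the Wildtype arrays their order was opposite to that of the muscle genes, with a median of -0.94 and 1 of 13 higher on array 2. The 11 adipocyte genes had a median of -0.84, 6 called lower, and summed signals of 191 and 321 against 490 and 526, led by Ucp1 at -2.19, Pparg at -1.17 and Plin1 at -1.09. Between the Wildtype arrays they had a median of -0.17. Tendon and connective tissue genes had a median of -0.28 over 7, 2 called lower, and summed signals of 2.95 and 3.07 against 3.52 and 3.20, with Thbs4 at least 1.68-fold higher in Wildtype, Scx at 0.71 and Fmod at -0.44. Schwann cell and nerve genes had a median of -0.12 over 8, 1 called lower, with S100b at -1.47, Prx at -0.42 and Cdh19 at 0.26. Salivary acinar and duct genes had a median of 0.30 over 13, with 7 called higher, led by Smgc at 1.57, Slc12a2 at 0.42 and Pip at 0.38. In these 5 lists, too, 0 genes passed the adjusted threshold by limma. The part of muscle, fat, lymphoid or connective tissue around the gland in the values of the muscle genes was not tested.

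**Figure D4:**
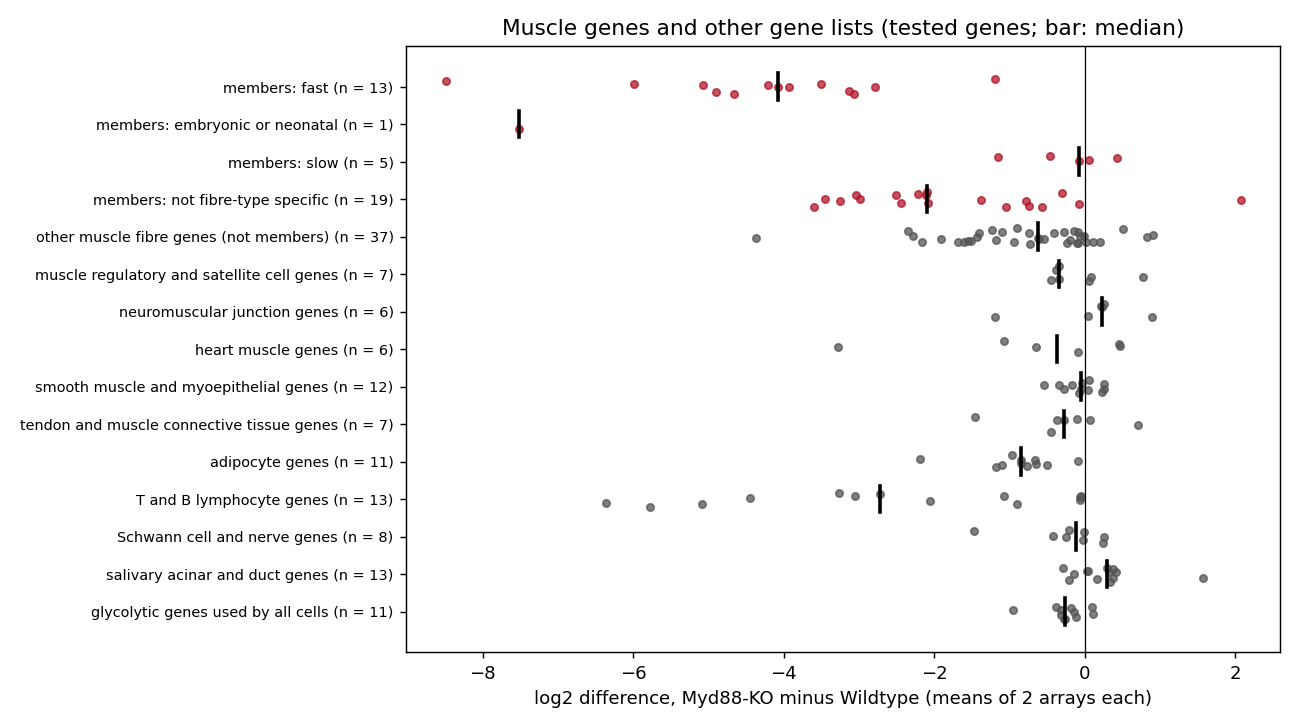
Log2 difference, Myd88-KO minus Wildtype (x axis), for each gene that passed (points) in the muscle set by isoform class (red) and in 11 other lists (grey), with the list median as a bar. The fast muscle genes (median -4.07) and the T and B lymphocyte genes (median -2.71) lie furthest to the left among classes with more than 1 gene, and the slow muscle genes (median -0.08) lie near 0.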

How the data were processed

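Arrays were grouped by GEO labels (2 Myd88-KO, 2 Wildtype). The authors deposited scanner output of Agilent Feature Extraction 10.7.3.1. The deposited processed signal is a background-corrected intensity without normalization between arrays. The mean spot and background intensities, also deposited, are uncorrected. Probe positions are those of the files (mm9). A processed table was left aside, since no label tied its 4 value columns to samples.

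The log2 processed signal of 59305 non-control spots was taken minus each array's 75th percentile. Outlier spots, 99 to 131 on an array, were dropped, and spots of a probe were averaged. A probe was well above background where a share over 0.5 of its spots was, and passed when this held on both arrays of a label. Groups were compared with limma 3.58.1 in R 4.3.3 (lmFit, eBayes, Benjamini-Hochberg, threshold 0.05), tested on simulated data. The number of arrays limits the precision.

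The muscle genes, the 11 other lists and the naming rule were chosen with earlier results of these data known. Named were the 3 largest and 2 smallest differences per isoform class, every myosin heavy chain and troponin, every gene higher in Myd88-KO, isoform pairs, and the 3 largest differences per list (1 of which is not reported here); Rasl10a, Cox6a2 and other members were added after their values were seen. Alternatives were normexp background correction (offset 50), quantile and detected-probe scaling, other filters, the mean of a gene's probes, the methods' t-test, trended and robust moderation, a replicate block and each array left out. Scaling by the median and a crossed block were added after seeing the data. Replicate numbers did not pair the arrays (r = -0.37 between deviations of arrays with the same number, over 22309 genes).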

Additional observations from a re-analysis of the deposited data

How the results depend on the processing

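Of the 38 muscle genes, 6 changed direction in at least 1 setting, all 6 with normexp or with an array left out. The replicate block and the filters repeat the same gene values, so those settings say nothing of direction. A common scaling shifts every gene alike and can turn only differences near 0. Casq2, for example, went from 0.06 to 0.01 with detected-probe scaling. With normexp background correction, which compresses dim signals, the median difference was -0.87 over the muscle genes and -1.85 over the fast ones, 17 genes were non-overlapping and at least 2-fold lower in place of 28, Cacng1 turned to 0.0335 and Myl3 to 0.0359, and limma called 79 genes. Small differences turned without Myd88-KO replicate 1 (Ldb3, 0.0387), Myd88-KO replicate 2 (Myh7, -0.0776; Casq2, -0.0979; Eno3, 0.0563) or Wildtype replicate 2 (Ldb3, 0.16; Eno3, 0.34). Without a filter the slow median was 0.12. With probes well above background on all 4 arrays, the median was -1.38 and 13 genes were non-overlapping and at least 2-fold lower.

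Leaving out each array gave medians from -3.21 (without Myd88-KO replicate 2) to -1.91 over the muscle genes, from -5.04 (without Wildtype replicate 1) to -3.10 (without Wildtype replicate 2) over the fast ones and from -0.11 to -0.04 over the slow ones, and counts of non-overlapping genes at least 2-fold lower from 25 to 30. Titin ranged from -5.68 to -1.03, since another probe, undetected on both Myd88-KO arrays, came to stand for it, Trdn from -3.67 to -0.46 and Myot from 1.54 to 2.61.

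limma called 482 genes with trended and robust moderation, 1 of them in the further muscle fiber list, and 402 with scaling by the median, 5 of them in that list, while the methods' t-test called 1 gene after adjustment; the cause was not tested. Scaling by the median shifted all genes by -0.05. With the replicate block, which cannot change a difference of means in this balanced design (median -2.48 over the muscle genes), 0 genes were called. The crossed pairing also called 0 genes. Depth does not apply to arrays, and dim probes have only bounds.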
